A study of Homo sapiens with 6 samples.

Results

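Glycolysis converts glucose to pyruvate in the cytosol, and lactate dehydrogenase then reduces pyruvate to lactate, which leaves the cell through monocarboxylate transporters. The pentose phosphate pathway branches off glucose 6-phosphate and yields NADPH and ribose 5-phosphate. When oxygen is short, the prolyl hydroxylases encoded by the *EGLN* genes no longer mark HIF-1α for degradation, and HIF-1 raises the transcription of many glycolytic genes and of genes for angiogenesis, mitophagy and collagen maturation. These genes were followed here in MDA-MB-231, an established triple-negative breast cancer line with mesenchymal features. The members were 39 genes chosen by their symbols: sugar and lactate transporters, glycolytic and pentose phosphate enzymes, oxygen sensors and hypoxia-induced genes. The deposited table held a row for 37 of them among 15917 genes in all. No row was found for *CA9*, a carbonic anhydrase induced by hypoxia, or for *SLC16A1*, the monocarboxylate transporter MCT1, so neither has a value here. Both were also sought by Ensembl identifier, with the same outcome.

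The study asked how loss of the RNA binding protein RBMS3 alters the transcripts it binds, and total RNA was sequenced from luciferase-labelled MDA-MB-231 cells in 6 libraries. The libraries labelled shCTRL (2 biological replicates) are of cells that carried a control hairpin and are labelled wild type. Those labelled shRBMS3-B3 and shRBMS3-C3 (2 biological replicates each) came from cells with a hairpin against *RBMS3*. Per the methods of the study, hairpins were delivered by a lentiviral vector and cells were selected with puromycin. No isolation of single-cell clones is described. No values per library were analysed here. What each gene has is the authors' mean normalized count, a single value pooled over libraries, with no error and no depth behind it that could be examined. A legend of the study gives equal numbers of knockdown and control replicates, whereas the labels hold more knockdown than control libraries, so which of them entered the mean is not settled. Knockdown and control cells are mixed in it, and no comparison between them was made. The level of the targeted gene could therefore not be checked in any library. The pooled level of *RBMS3* itself was 272 normalized counts, at percentile 17.3 of all genes by level per kb. Of the markers of a mesenchymal line, *VIM* (vimentin) lay at percentile 99.6 of all genes by level per kb *AXL* at 98.5, *CAV1* at 94.9, *CD44* at 94.4 and *ZEB1* at 56.2, and *SPARC* had no row. The epithelial cadherin *CDH1* lay at 1.58, *GATA3* at 27.9 and *EPCAM* at 32.8. The hormone receptor genes *ESR1* and *PGR* had no row, the receptor gene *ERBB2* lay at 72.5, and the keratin genes *KRT8* and *KRT18* lay at 98.8 and 98.7. Of the markers of other cells, *PTPRC* and *ALB* had no row, while *PECAM1* and *COL1A1* lay at percentiles 3.80 and 17.6.

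To compare genes with each other, the authors' mean normalized count was divided by the length of a representative GENCODE transcript in kb. All levels below are mean normalized counts per kb on a linear scale, and percentiles are among the 15829 listed genes with a transcript length. The median of the 37 genes was 1272, against 137 over all listed genes. Of the 37, 33 lay above the median of all listed genes and 20 lay above its 90th percentile, which was 1034. The members spanned 1921-fold, from 27.0 for *PDK1* to 51965 for *GAPDH*. This span rests on the long representative transcript of *PDK1*. By coding length the levels ran from 120.2 for *EGLN3* to 66443 for *GAPDH*. A few genes held most of the summed level. *GAPDH* alone made up 30.7% of the members' summed level, the highest 5 genes made up 72.2%, and the lowest 18 together made up 3.95%. All of these are descriptions of the pooled table and were not tested. Because no spread between libraries is known, the order of neighbouring genes is also a description. *PKM* and *TPI1*, *TALDO1* and *PFKP*, *ENO2* and *HIF1A*, and *P4HA1* and *ADM*, for example, stood within 1.07-fold of each other.

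**Figure D1:**
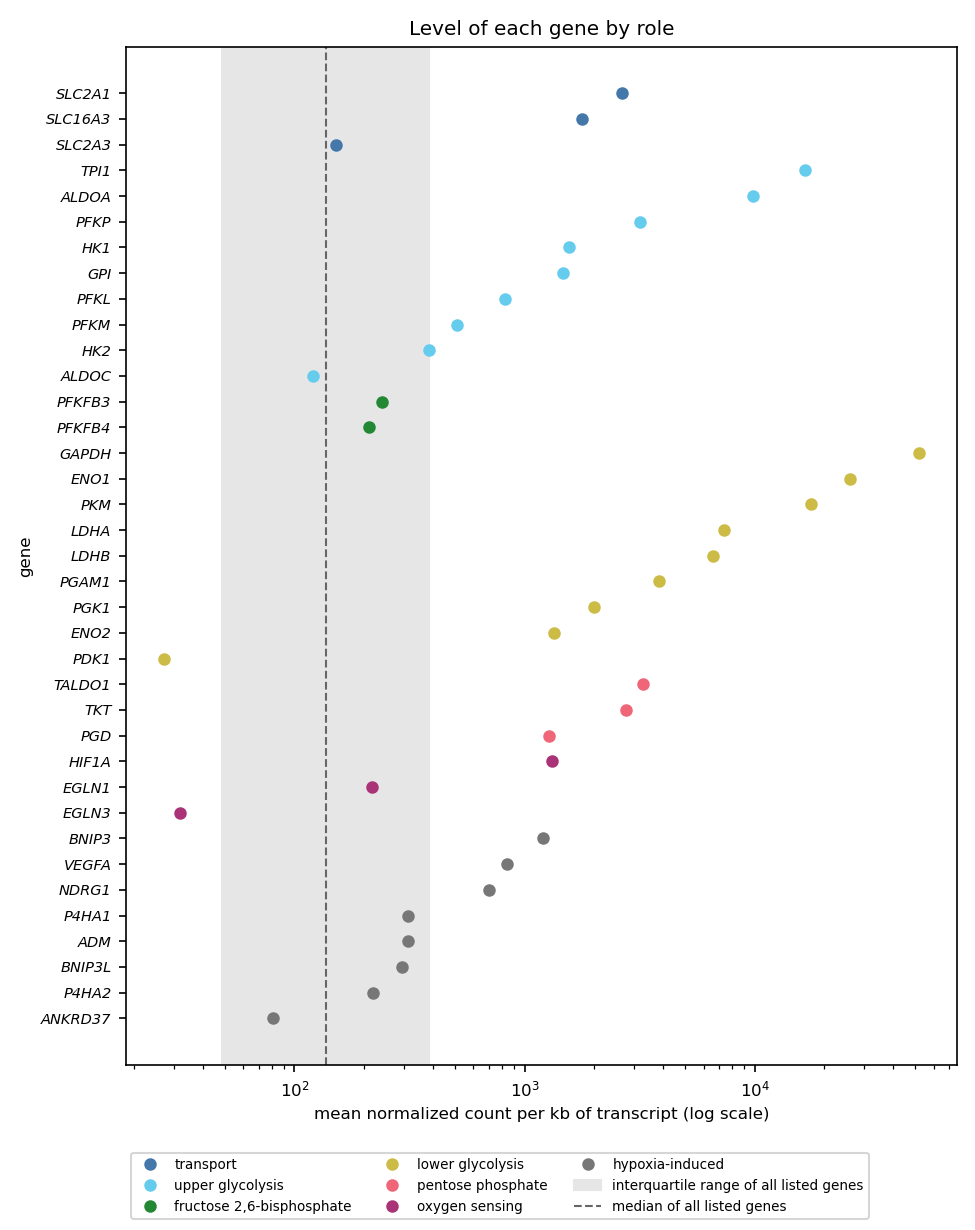
Mean normalized count per kb of transcript (log scale) of the 37 listed genes, 1 point per gene, coloured by role and ordered by level within it. The grey band is the interquartile range of all listed genes (48.6 to 383) and the dashed line their median of 137; 33 of the 37 points lie to the right of that line, and the highest, *GAPDH*, stands at 51965.

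The largest levels belonged to enzymes from the cleavage of the sugar onwards. In lower glycolysis, *GAPDH* (glyceraldehyde 3-phosphate dehydrogenase) reached 51965, *ENO1* (enolase) 26082 and *PKM* (pyruvate kinase) 17645. All of these lay above percentile 99.3 of the listed genes. The enzymes between *GAPDH* and *ENO1* in the pathway were lower, with 1998 for *PGK1* (phosphoglycerate kinase) and 3856 for *PGAM1* (phosphoglycerate mutase). The *PGK1* transcript is long because of its 3′UTR, and by coding length its level was 7685 against 9118 for *PGAM1*. *LDHA* and *LDHB*, the subunits of lactate dehydrogenase, stood at 7360 and 6604. *PDK1*, the kinase that switches off pyruvate dehydrogenase, was the lowest of all members at 27.0, percentile 14.7. Its representative transcript has 14072 bases, of which 12700 are 3′UTR, and by coding length its level was 291 and the lowest member was *EGLN3* at 120.2. Together the 9 genes of this group, *PDK1* included, made up 69.1% of the members' summed level.

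In upper glycolysis, *TPI1* (triose phosphate isomerase) reached 16522 and *ALDOA* (aldolase) 9803. The steps before the cleavage of the sugar had lower levels. *HK1* and *HK2*, the hexokinases that phosphorylate glucose, stood at 1557 and 384, and *GPI*, which makes fructose 6-phosphate, at 1464. The highest of the genes for the committed step, phosphofructokinase, was *PFKP* at 3180. The 9 genes of upper glycolysis made up 20.3% of the summed level. *PFKFB3* and *PFKFB4*, whose products set the concentration of fructose 2,6-bisphosphate and thereby the activity of phosphofructokinase, stood at 241 and 212, near percentiles 64.4 and 61.2.

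Among the transporters, *SLC2A1* (the glucose transporter GLUT1) reached 2647 and *SLC16A3* (the lactate exporter MCT4) 1779, both above percentile 94. *SLC2A3* (GLUT3) was at 152. The pentose phosphate genes lay close together. *TALDO1* (transaldolase) stood at 3277, *TKT* (transketolase) at 2750.3 and *PGD* (6-phosphogluconate dehydrogenase) at 1272. The lowest of these lay at percentile 91.8 of all listed genes.

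The genes of oxygen sensing and of the hypoxia response outside glycolysis had lower medians than upper and lower glycolysis, the transporters and the pentose phosphate genes. *HIF1A*, which encodes the oxygen-labile subunit of HIF-1, stood at 1316. Of the prolyl hydroxylase genes, *EGLN1* was at 217 and *EGLN3* at 31.9, the lowest member after *PDK1*. The 8 listed hypoxia-induced genes had a median of 311. *BNIP3*, a mitophagy receptor, was the highest of them at 1203, and its relative *BNIP3L* stood at 294. *VEGFA*, the angiogenic growth factor, was at 842 and the stress-responsive *NDRG1* at 699. These levels, and the size of the gap to glycolysis, rest on the length used. *VEGFA* was at 250 with its longest transcript and at 2565 by coding length, and *BNIP3L* was at 1544 by coding length. *P4HA1* and *P4HA2*, the catalytic subunits of collagen prolyl 4-hydroxylase, were at 312 and 220.5, and the vasodilator peptide gene *ADM* at 310.2. *ANKRD37* had a level of 80.7 and the smallest mean normalized count of all members, 63.3, where the smallest value in the whole table was 26.7. The group made up 2.34% of the members' summed level, and the 3 genes of oxygen sensing 0.926%.

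Where the members are isozymes or paralogs, the leading gene stood far above its relative in some pairs and close to it in others. *ALDOA* stood 81.7-fold above *ALDOC*, the brain aldolase, and *ENO1* 19.5-fold above *ENO2*, the neuronal enolase. Even so, *ENO2* itself lay at percentile 92.2 of all listed genes. *PFKP*, the platelet form of phosphofructokinase, made up 70.5% of the summed level of its gene family, with 18.2% for the liver form *PFKL* and 11.2% for the muscle form *PFKM*. *HK1* exceeded *HK2* by 4.05-fold, and by 2.59-fold when levels were set per coding length. *EGLN1* exceeded *EGLN3* by 6.81-fold, and *BNIP3* exceeded *BNIP3L* by 4.09-fold, or 2.06-fold per coding length. The ratio of *LDHA* to *LDHB* was 1.11, and it was 1.93 per coding length, because the *LDHA* 3′UTR has 1144 bases and that of *LDHB* 200. *PFKFB3* and *PFKFB4* differed by 1.14-fold. The order of *P4HA1* and *P4HA2* rested on the length used. Their ratio was 1.42 with the representative transcript and 0.853 with the coding sequence. Likewise, *PFKL* stood 1.62-fold above *PFKM*, but at 0.910 of its level with the longest transcripts.

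**Figure D2:**
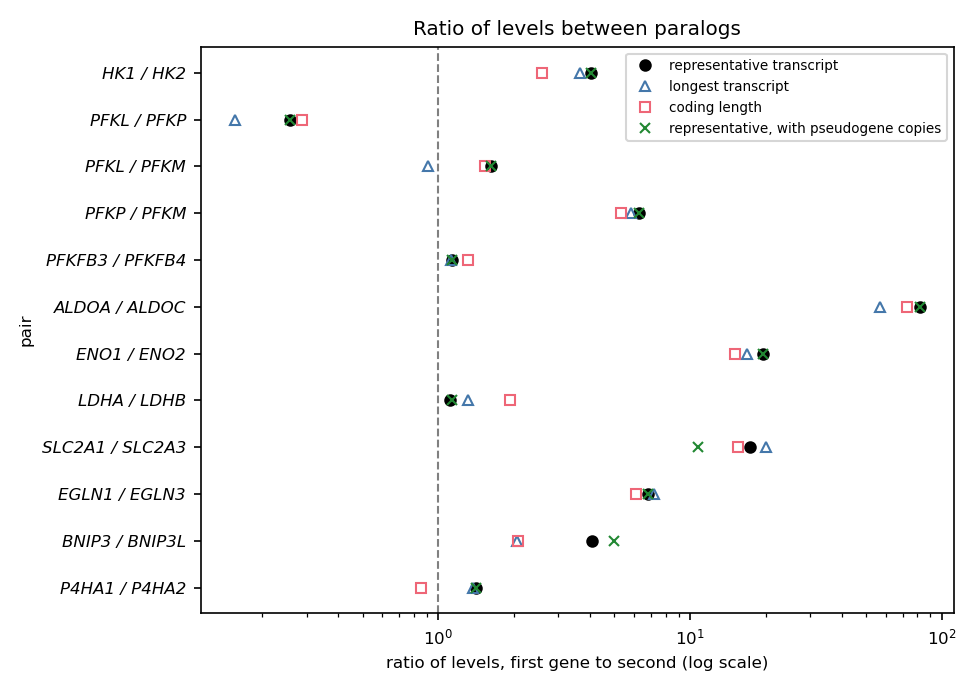
Ratio of levels (log scale) between paralogs, the gene named before the slash over the gene named after it, with each of 3 transcript lengths and with the counts of processed pseudogene copies added to the parent gene. The dashed line marks equal levels; *ALDOA* to *ALDOC* lies farthest to the right at 81.7, while the markers of *P4HA1* to *P4HA2* and of *PFKL* to *PFKM* fall on both sides of the line.

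Glycolytic genes have many processed pseudogenes, copies of the spliced transcript elsewhere in the genome whose reads can be confused with those of the parent. By GENCODE symbol, 34 such copies of 9 members were listed. *GAPDH* had 16 of them, with a summed mean normalized count of 3.50% of that of *GAPDH*. For 7 of the 9 parents the copies summed to at most this share. The exceptions were *BNIP3*, whose 2 copies summed to 21.6% of its count, and *SLC2A3*, whose single copy *SLC2A3P1* had 363 normalized counts against 583 for the gene. With these copies added, *SLC2A1* stood 10.7-fold above *SLC2A3*, against 17.4-fold without. How reads were divided between copies and parents was not examined, so the levels of *BNIP3* and *SLC2A3* are uncertain. The counts of the listed copies do not bound that uncertainty.

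Of 38 other genes of the same pathways, 23 were listed, with a median percentile of 49.0. *PGLS*, which encodes 6-phosphogluconolactonase of the pentose phosphate pathway, stood at 793. *RPIA* and *RPE*, which interconvert the pentose phosphates, were at 130.2 and 132. Among the oxygen sensors, *EGLN2* stood at 686, above both *EGLN1* and *EGLN3*, and *EPAS1*, the gene of HIF-2α, at 360.1 was below *HIF1A*. The other kinases of pyruvate dehydrogenase stood at 161 for *PDK2*, 76.7 for *PDK3* and 13.9 for *PDK4*. Per coding length *PDK2* had 445, *PDK1* 291, *PDK3* 109.6 and *PDK4* 40.7. The 15 genes without a row included the tissue-restricted isozyme genes *PKLR*, *LDHC* and *PGK2*, and also the transketolase-like genes *TKTL1* and *TKTL2*.

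The genes lay on 17 chromosomes. Chromosomes 10 and 12 held 6 each, and *GAPDH*, *TPI1* and *ENO2* lay on the plus strand of chromosome 12 within 389 kb, from 6534512 to 6923698 in GENCODE release 44. The levels of these neighbours differed widely, with 51965 for *GAPDH* and 1337 for *ENO2*.

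RBMS3 has been tied by the study to an AUA-rich element, and the presence of this element in the members' 3′UTRs was therefore described. The element stands for 12 heptamers of the form NNATANA, with A, G or T as the first base and A or T as the second and as the sixth, sought on the transcript strand with overlaps counted. Those that end in AATAAA contain the polyadenylation signal. At least 1 match was present in 29 of the 37 genes (78.4%), beside 84.8% of the 12351 listed genes with a 3′UTR. The members had shorter 3′UTRs, with a median of 1005 bases against 1378, and fewer matches, with a median of 1 against 3. Among the 8 members with a 3′UTR of at most 421 bases, 4 held the element, where 61.3% of all listed genes of that length did. Of the 10 members with 422 to 983 bases, 8 held it, beside 78.5% of all genes of that length. Of the 8 with 984 to 1851 bases, 7 held it, beside 90.2%, and of the 9 with 1852 to 3302 bases, 8 held it, beside 95.5%. Both members with longer 3′UTRs held it, beside 98.6%. From the shortest to the longest group, the members' median matches were 0.5, 1, 3.5, 4 and 19, against 1, 1, 3, 6 and 12 over all genes. The genes without a match included highly expressed enzymes, namely *GAPDH*, *PKM*, *PFKP*, *TALDO1* and *PGD*, as well as *PFKFB4*, *NDRG1* and *ANKRD37*. In 8 genes, among them *ENO1*, *ALDOA* and *LDHB*, every match was of the form with AATAAA. Of the 37 members, 29 held any match and 21 held one without AATAAA. The shares over all listed genes with a 3′UTR were 84.8% and 62.4%.

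The most matches were held by *PDK1*, with 32 in 12700 bases. *VEGFA* held 30 in only 1925 bases, a number reached or passed by 2.23% of all listed genes with a 3′UTR. *BNIP3* held 11 in 840 bases, *BNIP3L* 10 in 2715, *EGLN3* 9 in 1664, *P4HA2* 8 in 2863 and *HIF1A* 7 in 1173. These numbers are for the representative transcript. In the longest annotated 3′UTR, *BNIP3* held 7 matches and *EGLN3* 3, while the other genes named here kept their numbers. Per kb of 3′UTR, *VEGFA* had 15.6 matches and *BNIP3* 13.1, where the median of all genes of the length group of *VEGFA* was 2.42 and that of *BNIP3* 2.17. To show how such sites look, the match nearest to the stop codon, with 10 bases on either side, is printed for 6 of the genes with the most matches, from GENCODE transcripts on GRCh38. Capitals mark the heptamer.
PDK1, chr2:172596080-172596106, plus strand: tatttgagtaGAATAAAtggaaactga
VEGFA, chr6:43784910-43784936, plus strand: atacatacatTTATATAtatatatatt
BNIP3, chr10:131968366-131968392, minus strand: taatttagtaAAATAAAagaatagaca
EGLN3, chr14:33925217-33925243, minus strand: atgactttctGAATAAAgatggcaaca
P4HA2, chr5:132192623-132192649, minus strand: ctttaccaaaAAATAAAatgtccctac
HIF1A, chr14:61747578-61747604, plus strand: gttactcatgGAATATAttctgcgttt
The *VEGFA* window runs on into an alternating TA stretch in which heptamers overlap, whereas the windows of *PDK1*, *BNIP3*, *EGLN3* and *P4HA2* hold the AATAAA form. A match is a description of sequence, and whether RBMS3 binds these transcripts was not examined here. The study mapped binding sites of a tagged RBMS3 in MDA-MB-231 by cross-linking and immunoprecipitation. Those sites were not compared with the matches.

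**Figure D3:**
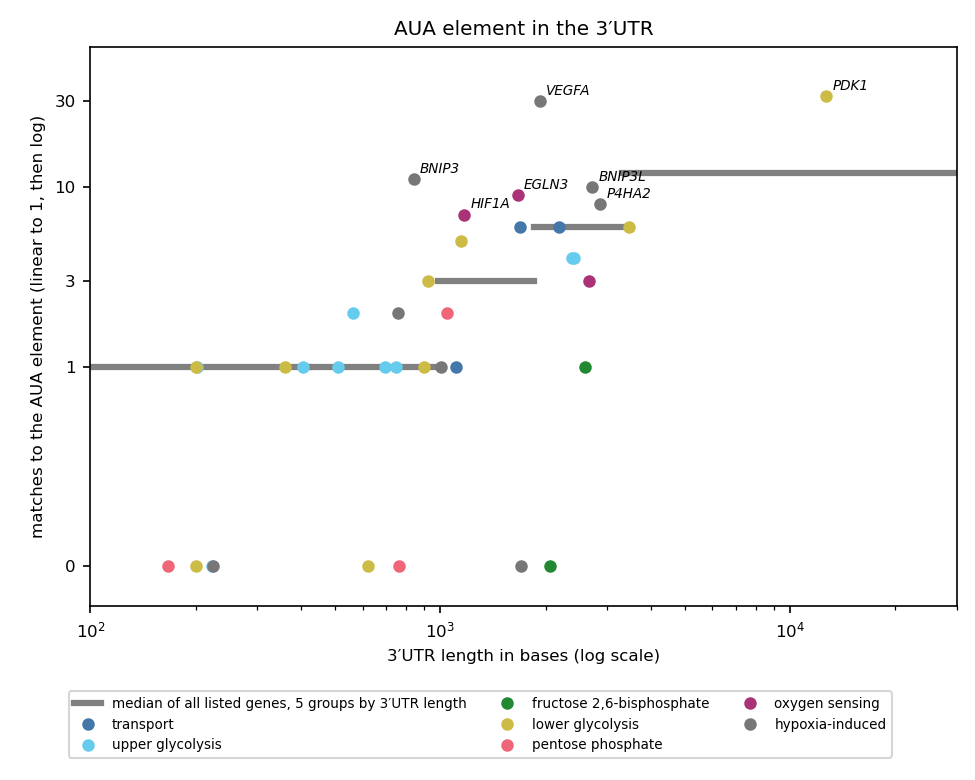
Matches to the AUA element (linear up to 1, then log) against 3′UTR length in bases (log scale), 1 point per listed gene of the set, coloured by role. Grey bars give the median number of matches over all listed genes in 5 equally filled groups by 3′UTR length; *VEGFA* with 30 matches and *BNIP3* with 11 lie above the bars of their groups, at 6 and 1.

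HIF-1 binds DNA at a short core, and this core was sought as ACGTG or GCGTG on either strand in RefSeq promoters on GRCh38.p14, windows of 300 bases from 250 before the start site to 50 after it. The palindrome CACGTG, an E-box, holds ACGTG on both strands and counts as 2 matches. Promoters were matched for 33 of the 37 genes, all but *VEGFA*, *NDRG1*, *BNIP3L* and *SLC2A3*. For the members and the listed genes, only the first promoter entry of each symbol was searched, and any other promoters of a gene were not. The shares of all promoters count every entry. At least 1 core was present in 22 of the 33 (66.7%), beside 63.4% of the listed genes with a promoter and 48.4% of all 35116 promoters. The form ACGTG was present in 13 of the 33 (39.4%), beside 26.8% of the listed genes and 21.4% of all promoters. *LDHA* and *BNIP3* held the most cores, 6 each, followed by *ALDOC* with 5 and *PGK1* with 4. No core was found in this window for 11 members, which says only that the letters are absent there. They were *TPI1*, *PGAM1*, *PFKP*, *PFKM*, *HK1*, *SLC16A3*, *PDK1*, *TALDO1*, *TKT*, *P4HA2* and *EGLN3*. For 6 of the genes with the most cores, the ACGTG match farthest upstream that has 8 bases on either side in the window is printed, on the strand of the gene. Capitals mark the core, which reads CACGT where it lies on the opposite strand.
BNIP3, chr10:131982045-131982065, minus strand: acgcgccgCACGTgccacacg
LDHA, chr11:18394370-18394390, plus strand: tcccagcgCACGTggagcagt
ALDOC, chr17:28577123-28577143, minus strand: gtgcccggCACGTggtaaagg
PGK1, chrX:78104038-78104058, plus strand: cgtgccggACGTGacaaacgg
ANKRD37, chr4:185396671-185396691, plus strand: ccgggctcCACGTgccagtgt
HK2, chr2:74833890-74833910, plus strand: acggaccaCACGTcccatctc
The cores of *BNIP3*, *LDHA*, *ALDOC* and *ANKRD37* lie in an E-box, and those of *PGK1* and *HK2* do not. The members that hold most cores ranged in level from 80.7 for *ANKRD37* to 7360 for *LDHA*.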

How the data were processed

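Total RNA of 6 MDA-MB-231 libraries was prepared by the authors with a stranded kit for small inputs and sequenced in paired ends. The submitters' processing notes name Salmon, DESeq2 and hg38, without versions; an annotation, GENCODE, is named by the study for its SLAM-seq, and for this table it is not given in the sources used here. The authors deposited 1 table for the series, and the signal used here is its column headed baseMean. The column was taken as the mean normalized count per gene over libraries, although the header names no sample. It was at least 26.7 in every row. The other 5 numeric columns hold the authors' own comparison of knockdown and control cells (log2 fold change, its error, the statistic, p-value and adjusted p-value) and were not used. No column holds values per library, so the count test foreseen in the design could not be made, and library depth is unknown.

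Of the 15917 rows, 15829 had an Ensembl identifier found in GENCODE release 44 (GRCh38), the source of lengths and coordinates. The representative transcript was MANE Select, otherwise Ensembl canonical, otherwise that with the longest coding sequence. Percentiles are shares of genes at or below a value. Motif counting was tested on simulated data. All members are named, and the pairs, other pathway genes, markers and the rule for printed sites accompany them. Some of the other pathway genes are counted but not reported here by name. The members and lists were chosen with earlier results of these data known. The rule for printed sites was set after the matches were counted. Alternatives were other lengths, other gene backgrounds, pseudogene copies added, and other motif definitions. Python 3.11.15, numpy 2.4.6 and pandas 2.3.3 were used.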

Additional observations from a re-analysis of the deposited data

How the results depend on the processing

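The count of listed members was 37 by symbol and by Ensembl identifier. The median level of the members, 1272 per kb, was 957 with the longest transcript of each gene and 2096 with the coding length. Their median percentile, 91.8, was 92.3 among protein-coding genes, 92.5 without division by length, and 85.2 when only the 7942 genes with a count above the table's median were kept. The members made up 0.561% of the summed level per kb of all listed genes. This share was 1.41% without division by length and 2.53% among protein-coding nuclear genes, where noncoding and mitochondrial genes are left out together. The AUA element was present in 29 of 37 members, beside 84.8% of all listed genes with a 3′UTR. With the longest 3′UTR it was present in 30, beside 83.2%. Without the AATAAA forms it was present in 21, beside 62.4%, and with at least 3 matches in 15, beside 53.1%. The hypoxia core was present in 22 of the 33 members with a promoter, beside 63.4% of the listed genes with one. As ACGTG it was present in 13, beside 26.8%. For the 12 ratios between paralogs, 8 of the alternatives with pseudogene copies could not move, since neither gene had a listed copy. Of the other 28 alternatives, 26 kept the leading gene. The ratio of *PFKL* to *PFKM* was 0.910 with the longest transcripts, and that of *P4HA1* to *P4HA2* was 0.853 per coding length. Tests of knockdown against control, another normalization, each replicate left out and each hairpin alone were not run, since no values per library were analysed. No paired analysis was possible because each gene has a single mean over libraries. Depth per library is unknown, so the precision of any level cannot be given.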
